A study of Mus musculus with 2 samples.

Results

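Zfp608, Zmiz1 and Basp1 are 3 mouse genes whose surroundings held many sites of open chromatin away from promoters in embryonic retina. The sites were peaks of DNase-seq, an assay that maps chromatin open to cutting by the nuclease DNase I, as promoters, enhancers and insulators in use tend to be. A peak belonged to a gene if it lay farther than 1 kb from every annotated transcription start site (TSS) and if the closest TSS of any protein-coding gene was that gene's. The stretch of genome for which this holds is called the gene's territory below, and a peak outside the TSS windows a distal peak. The 3 territories held 414 of 119525 distal peaks in replicate 1 and 472 of 166266 in replicate 2, for 3 of 21911 coding genes. The genes were chosen by their number of distal peaks in these data, so numbers and densities of peaks are given as a description only. A peak need not act on the gene whose TSS is closest.

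The data hold 1 group of 2 biological replicates, retina of embryonic day 14.5 from the mouse strain labelled B6NCrl, pooled from male and female embryos and healthy, with no treatment or engineered allele in the labels. Both libraries carry the same donor label, so they may share animals and their spread may be partly technical. Replicate 1 was also sequenced on an instrument model not named for replicate 2, so instrument and replicate cannot be told apart. With 1 group of 2 libraries no test was possible. Values are given for each library, replicate 1 first, or as mean ± SD over both libraries.

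Zfp608 encodes a zinc finger protein, a paralog of Zfp609. Zmiz1 encodes a transcriptional coregulator with a zinc finger domain like that of the PIAS family, and is known as a cofactor of Notch1, the receptor that keeps retinal progenitors from differentiating. Basp1 encodes a membrane-bound protein abundant in growth cones, of a kind with Gap43 and Marcks, and in the nucleus serves as a co-repressor of Wt1. Genes with long noncoding surroundings often have enhancers spread over such stretches, and a DNase I peak list shows where candidate elements lie but not which gene they serve.

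The peaks that carry the description are shown here as sequence, read from the GRCm38 (mm10) genome on the plus strand, 150 bases for each peak. Positions in kb are distances of a peak's centre from the 5′ end of the gene, with negative values upstream. Capitals mark matches to any of 9 motifs searched on both strands, which are TAATTA (homeodomain), TAATCC (Otx and Crx type), CAGCTG and CAGATG (E-boxes), ACAAAG (Sox type), ATGCAAAT (POU octamer), GGGCGG (GC box), TGANTCA (AP-1 type) and the CTCF core. A capital stretch can be a reverse complement, and matches can overlap. For Zmiz1, the distal peak ranked highest in both libraries (chr14:25318056-25318205, an exon of the long noncoding gene Gm26660) held ACAAAG and, on the minus strand, ATGCAAAT. The next one shown (chr14:25585876-25586025) was the strongest shared peak inside Zmiz1 itself, in an intron, and held GGGCGG and ACAAAG on the minus strand. The third (chr14:25317776-25317925, again in an exon of Gm26660) was the strongest Zmiz1 peak called in replicate 2 alone, and its matches to GGGCGG, the CTCF core and CAGATG overlap.
Zmiz1 peak at -141 kb: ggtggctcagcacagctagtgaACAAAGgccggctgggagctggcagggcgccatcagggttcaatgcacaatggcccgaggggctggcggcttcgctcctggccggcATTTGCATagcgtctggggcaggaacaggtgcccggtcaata
Zmiz1 peak at 127 kb: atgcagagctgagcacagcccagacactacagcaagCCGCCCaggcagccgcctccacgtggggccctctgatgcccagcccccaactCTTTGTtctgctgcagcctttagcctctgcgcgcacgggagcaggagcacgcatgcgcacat
Zmiz1 peak of replicate 2 alone: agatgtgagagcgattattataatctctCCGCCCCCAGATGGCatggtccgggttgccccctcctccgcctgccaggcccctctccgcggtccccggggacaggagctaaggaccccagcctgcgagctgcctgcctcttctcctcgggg

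For Basp1, the first sequence shown is the shared distal peak with the highest ranks (chr15:25412216-25412365), in an intron of Basp1 and just outside the 1 kb window around its TSS. It held the Sox type motif ACAAAG, the homeodomain motif TAATTA and the Otx and Crx type motif TAATCC. The second (chr15:24407796-24407945) was an intergenic peak 1006 kb downstream that held the CTCF core on the minus strand and TAATTA. The last pair are the highest-scoring peaks of a 22.5 kb stretch that was crowded with peaks in replicate 1 only and is described further below (chr15:25137176-25137325 in replicate 1 and chr15:25140956-25141105 in replicate 2). The first of the pair held none of the 9 motifs and the other CAGCTG.
Basp1 peak at 1.47 kb: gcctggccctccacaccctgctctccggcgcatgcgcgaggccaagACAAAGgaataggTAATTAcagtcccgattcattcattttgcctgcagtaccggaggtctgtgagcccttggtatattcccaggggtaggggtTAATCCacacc
Basp1 peak at 1006 kb: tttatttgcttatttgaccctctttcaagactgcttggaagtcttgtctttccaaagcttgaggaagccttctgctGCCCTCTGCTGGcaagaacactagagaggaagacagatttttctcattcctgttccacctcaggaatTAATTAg
Basp1 block peak of replicate 1: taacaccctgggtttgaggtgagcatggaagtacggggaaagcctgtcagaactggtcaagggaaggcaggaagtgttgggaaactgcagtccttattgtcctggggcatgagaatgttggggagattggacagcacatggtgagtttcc
Basp1 block peak of replicate 2: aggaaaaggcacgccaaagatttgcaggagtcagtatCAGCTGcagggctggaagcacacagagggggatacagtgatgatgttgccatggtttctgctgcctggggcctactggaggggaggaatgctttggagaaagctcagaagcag

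Replicate 1 had 165269 distinct peaks and replicate 2 had 219308, of which 119525 and 166266 were distal. Distal peaks thus came to 4.39 and 6.10 per 100 kb of genome, a ratio of 1.39 between the libraries. Promoter peaks at markers of this tissue were found in both libraries. They were at 8 of 8 retinal progenitor genes and 5 of 5 genes of ganglion cells and precursors. The marker lists were chosen with earlier results of these data known. The share of all coding genes with a promoter peak is not given here, so the counts have no background. Of the markers of other tissues, none of 3 lens genes and none of 2 erythroid genes had one in either library, while Mitf (1 of 3 pigment epithelium genes) and Kdr (1 of 2 endothelial genes) had one in both. Csf1r, 1 of 3 microglia genes, had one in replicate 1 only. Read numbers are not in the files used here, so the depth of the libraries is unknown. The part of library differences or of other cell types in the peaks below was not tested.

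Zfp608 had 176 distal peaks in replicate 1 and 241 in replicate 2 (208.5 ± 46.0, SD, n = 2). Zmiz1 had 114 and 110 (112 ± 2.83) and Basp1 had 124 and 121 (122.5 ± 2.12). The count near Zfp608 was higher in replicate 2 by a ratio of 1.37, close to that of all distal peaks, whereas the counts near Zmiz1 and Basp1 were nearly equal, with ratios of 0.965 and 0.976. When each library was reduced to its 100000 highest-scoring peaks, Zfp608 had 127 and 127 distal peaks, Zmiz1 81 and 63, and Basp1 39 and 38. In the order of all coding genes by mean count, Zfp608 stood between Tenm3 (214 and 300) and Zfhx3 (161 and 248). Basp1 stood at place 12, next to Cdh11 (100 and 149) and Robo1 (107 and 138), and Zmiz1 at place 22, next to Pcdh9 (66 and 158) and Macrod2 (93 and 130). Tenm3 was above Zfp608 in both libraries. The other neighbours differed from the member by less than the spread between the libraries.

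The Zmiz1 territory of 0.700 Mb held 16.3 and 15.7 distal peaks per 100 kb, the Zfp608 territory of 1.28 Mb held 13.7 and 18.8, and the Basp1 territory of 1.22 Mb held 10.1 and 9.88. The median over 1109 coding genes with a territory of at least 0.5 Mb was 2.60 and 4.47. Among those genes Zfp608 took place 5 and 4 by density, Zmiz1 place 2 and 14, and Basp1 place 27 and 110. The place of Zfp608 was nearly the same in both libraries, and that of Basp1 differed most. Of the genes most like them, Zfhx3, a transcription factor gene, had 12.0 and 18.5 per 100 kb, Sox2, a progenitor transcription factor gene, 12.8 and 13.3, and Tenm3, a cell adhesion gene, 7.20 and 10.1.

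**Figure D1:**
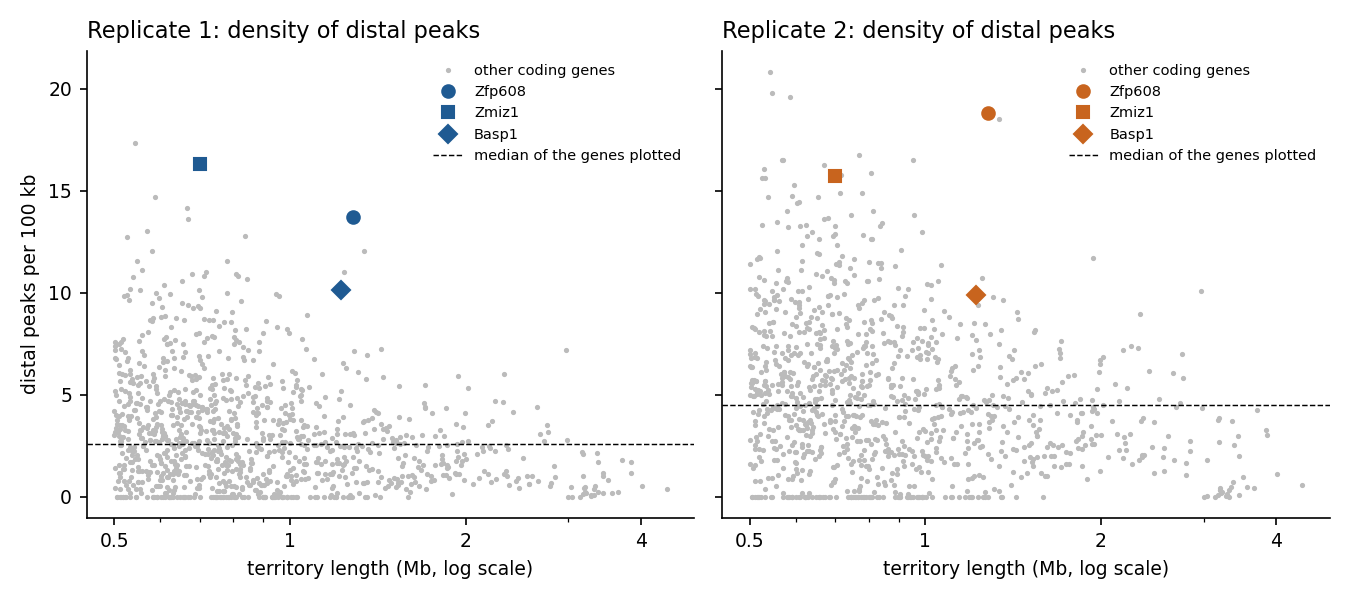
Density of distal peaks (distal peaks per 100 kb, vertical axis) against territory length (Mb, log scale) for 1109 coding genes with a territory of at least 0.5 Mb, 1 panel for each library. Each grey point is a gene, the coloured circle, square and diamond are Zfp608, Zmiz1 and Basp1, and the dashed line is the median (2.60 and 4.47). Zfp608, at 13.7 and 18.8, took place 5 and 4 by density. Zfhx3, with a territory of 1.34 Mb, had 12.0 and 18.5 and took place 11 and 5.

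The Zfp608 gene (ENSMUSG00000052713.9) lies on the minus strand of chromosome 18 at 54888048 to 54992555, and its territory runs from 54413904 to 55696446. The territory held 194 peaks in replicate 1, of which 176 were distal, 8 lay within 1 kb of a Zfp608 TSS and 10 near a TSS of another, noncoding gene. In replicate 2 these numbers were 259, 241, 7 and 11. Upstream of the gene, 703.891 kb held 86 and 133 distal peaks (12.2 and 18.9 per 100 kb). The gene body of 104.508 kb held 31 and 35 (29.7 and 33.5 per 100 kb), and 474.144 kb downstream held 59 and 73 (12.4 and 15.4 per 100 kb). The gene body was thus the densest of the 3 compartments in both libraries, but most peaks lay outside it. By annotation, 118 and 166 were intergenic, 23 and 28 in introns of Zfp608, 23 and 36 in introns of other genes and 12 and 11 in exons.

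Peaks near Zfp608 were spread along the territory. Of 52 bins of 25 kb, 40 held peaks in both libraries and 4 were empty in both. Runs of at least 5 distal peaks with neighbours at most 10 kb apart, called clusters here, numbered 14 and 15, and 12 of each overlapped a cluster of the other library. The 50 kb with the most peaks in replicate 1 ran from -31.3 kb to 18.7 kb, over the 5′ end of the gene, and held 20 and 23. A cluster near the 3′ end of the gene, from 79.1 kb to 93.0 kb, held 15 peaks in replicate 1, and its counterpart in replicate 2 held 17. A cluster from -217 kb to -197 kb held 11 in replicate 1, where replicate 2 had a longer one, from -218 kb to -185 kb, with 30 peaks. The most distant clusters found in both were at 531 kb to 542 kb downstream, with 9 and 9 peaks, and at -557 kb to -553 kb upstream, with 9 in replicate 1, where a longer cluster of replicate 2 held 11. A cluster of 8 peaks from -703 kb to -684 kb was called in replicate 2 alone, and replicate 1 had 1 peak there.

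The 5 strongest shared distal peaks of Zfp608 were all intergenic and lay in 5 different places. The highest (chr18:55549836-55549985, at -557 kb) had deposited scores of 114 and 139, which ranked at the 96.3 and 99.1 percentile of all peaks of its library. The peak at -387 kb (chr18:55379716-55379865) had 111 and 138, and that at 272 kb (chr18:54720276-54720425) 106 and 138. The peaks at 164 kb (chr18:54828976-54829125) and -141 kb (chr18:55133736-55133885) had 103 and 121, and 103 and 125. The peak at the 5′ TSS of Zfp608 itself scored 101 and 124, less than 4 of the 5 distal peaks in both libraries, the one at 164 kb being the exception in replicate 2. A second Zfp608 TSS 2.389 kb into the gene had 95 and 135, and the TSSs at 35.8 kb and 97.0 kb had no peak within 1 kb in either library. The strongest peak of replicate 1 alone lay at 273 kb with a score of 68, and that of replicate 2 alone at 164 kb with 106. Both lay close to one of the 5 shared peaks.

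**Figure D2:**
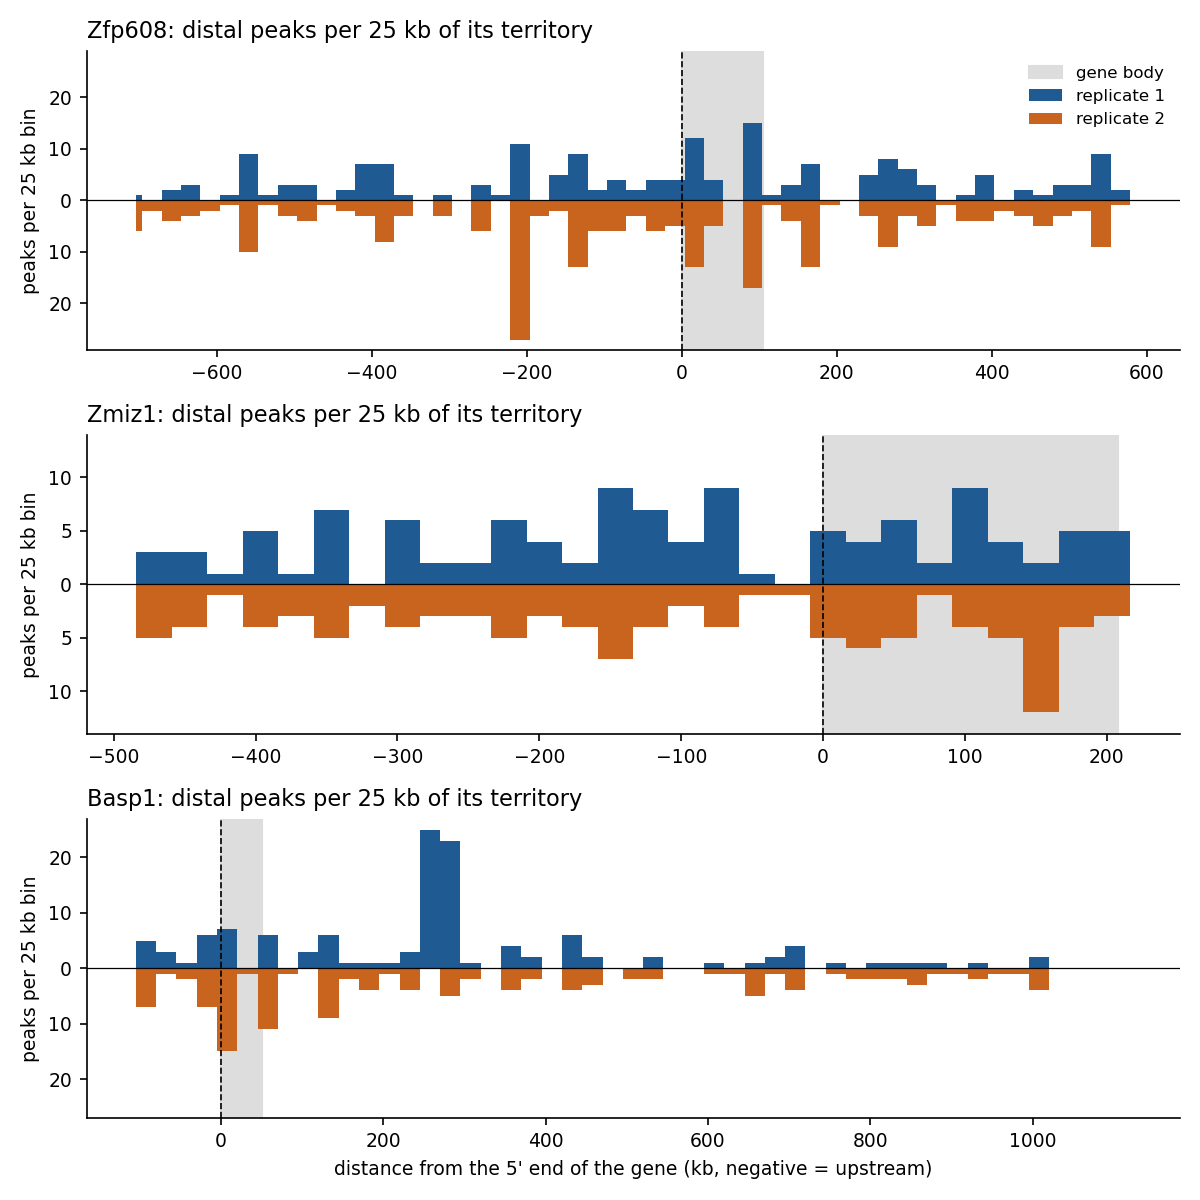
Number of distal peaks in 25 kb bins (vertical axis) along each territory (distance from the gene's 5′ end in kb, negative upstream, dashed line at 0), with replicate 1 above the line, replicate 2 below it and the gene body in grey. Bins with peaks in both libraries were 40 of 52 for Zfp608 and 26 of 29 for Zmiz1, and Basp1 has a pair of neighbouring bins downstream of the gene with peaks almost only in replicate 1, the higher of them with 25.

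The Zmiz1 gene (ENSMUSG00000007817.15) lies on the plus strand of chromosome 14 at 25459185 to 25666743, and its territory runs from 24975168 to 25675492, ending close to the next coding gene, Ppif, which had 0 distal peaks in both libraries. Of 137 and 132 peaks in the territory, 114 and 110 were distal, 7 and 7 lay near a Zmiz1 TSS and 16 and 15 near a TSS of another gene. The 484.017 kb upstream held 72 and 65 distal peaks (14.9 and 13.4 per 100 kb), and the gene body of 207.559 kb held 38 and 43 (18.3 and 20.7 per 100 kb). The 8.749 kb downstream held 4 and 2 (45.7 and 22.9 per 100 kb), few peaks in a short stretch. Introns of Zmiz1 held 34 and 40, introns of other genes 37 and 28, intergenic DNA 36 and 37 and exons 7 and 5. The territory holds 10 long noncoding genes, among them Gm26660 and Zmiz1os1.

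Of 29 bins, 26 held Zmiz1 peaks in both libraries, and no bin held more than 9 in replicate 1 or 12 in replicate 2. Clusters numbered 13 and 9, and 6 of each overlapped one of the other library, a smaller part than near Zfp608. The same part over the clusters of all genes is not given here. Without peaks whose score is in decimal form, clusters held 54.9% and 46.3% of Zmiz1 peaks, against 78.1% and 56.4% with them. Clusters found in both libraries included 8 and 8 peaks from -237 kb to -223 kb and 10 and 8 peaks from about -161 kb to -153 kb. Others were 5 and 5 from 3.91 kb to 6.04 kb and 6 and 5 from 52.9 kb to 62.1 kb. The densest 50 kb of replicate 1, from -164 kb to -114 kb, held 16 and 13. That of replicate 2, from 116 kb to 166 kb, held 6 and 17, and most of the difference lay in a cluster from 145 kb to 165 kb with 12 peaks in replicate 2 and 2 in replicate 1. In the opposite direction, 6 peaks were called within 0.990 kb, from -304 kb to -303 kb, in replicate 1 where replicate 2 had 2.

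The highest shared Zmiz1 peak, at -141 kb, had scores of 125 and 135 (percentiles 98.5 and 98.2). These were at the level of the main Zmiz1 TSS, 116 and 134. The peaks at -273 kb and -62.0 kb had 103 and 128, and 101 and 128, and that at 127 kb had 94 and 121. Internal TSSs of Zmiz1 at 148.2 kb and 148.7 kb had peaks within 1 kb whose highest score was 99 and 124, at different sites in the libraries, while TSSs at 43.5 kb and 197.6 kb had none. The strongest peak of replicate 2 alone, shown above with the CTCF core, scored 120 and lay at -141.3 kb, beside the highest shared peak. The strongest of replicate 1 alone scored 78 at -61.8 kb, beside the shared peak at -62.0 kb.

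The Basp1 gene (ENSMUSG00000045763.8) lies on the minus strand of chromosome 15 at 25363277 to 25413764, and its territory runs from 24293782 to 25518144. Of 144 and 140 peaks in the territory, 124 and 121 were distal, 4 and 3 lay near a Basp1 TSS and 16 and 16 near a TSS of another gene. Nearly all of the territory is downstream, and those 1069 kb held 99 and 83 distal peaks (9.26 and 7.76 per 100 kb). The 104.38 kb upstream held 16 and 21 (15.3 and 20.1 per 100 kb) and the gene body of 50.488 kb held 9 and 17 (17.8 and 33.7 per 100 kb). Introns of other genes held 61 and 35, intergenic DNA 49 and 68, introns of Basp1 8 and 14 and exons 6 and 4. Of 49 bins, 29 held peaks in both libraries and 10 in neither.

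The equal totals near Basp1 came from different places in the 2 libraries. In replicate 1, a single cluster from 257 kb to 279 kb downstream (chr15:25134736-25157205, 22.5 kb long) held 47 of the 124 distal peaks, and replicate 2 had 4 there. The stretch covers one end of the noncoding gene 9230109A22Rik and its flank. Counting peaks near noncoding TSSs too, it held 53 peaks in replicate 1 and 5 in replicate 2, a median of 430 bp and 2040 bp apart. Scores of replicate 1 in the stretch were low, from 3 to 23 with a median of 7, and 49 of the 53 ranked in the lowest 10% of the library. The 5 peaks of replicate 2 scored 26 to 50. Hotspots, the authors' broader regions of DNase I signal, numbered 44 and covered 69.4% of the stretch in replicate 1, 22 of them at the highest significance the files give, while 5 hotspots covered 5.06% in replicate 2. Without the stretch, Basp1 had 77 and 117 distal peaks (6.29 and 9.56 per 100 kb), a ratio of 1.52 between the libraries where all distal peaks gave 1.39.

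**Figure D3:**
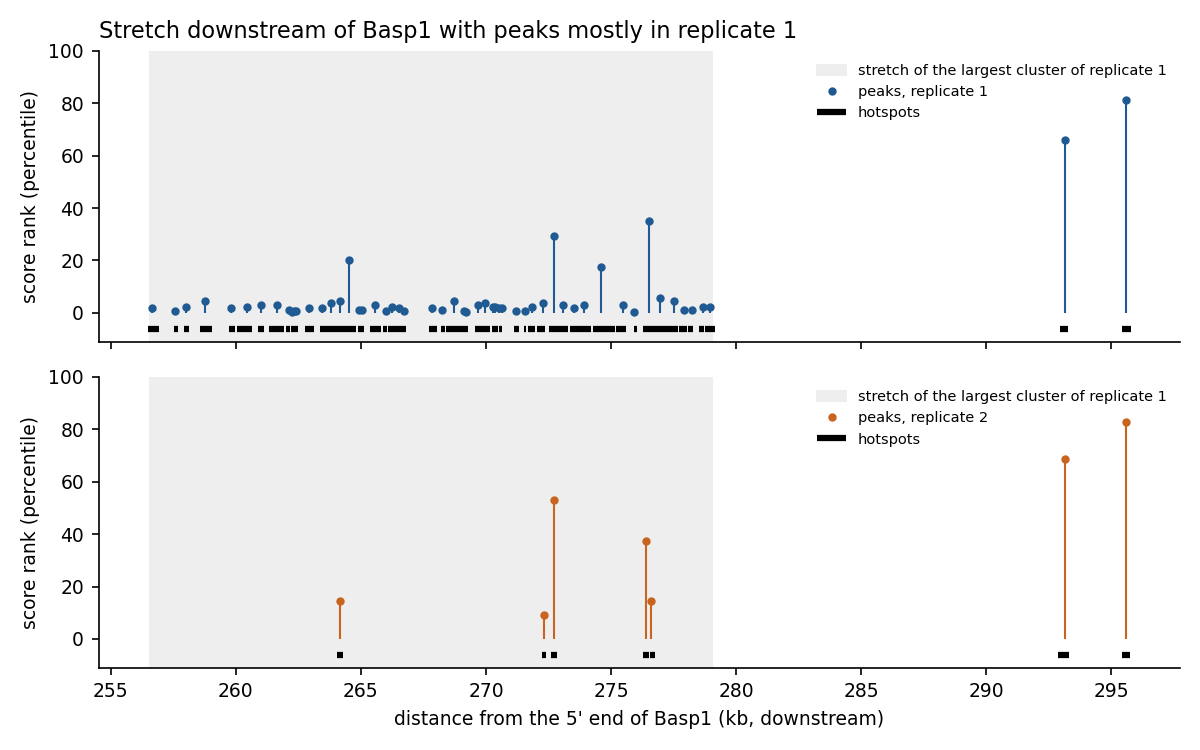
Peaks and hotspots downstream of Basp1 in replicate 1 (top) and replicate 2 (bottom), with distance from the 5′ end of Basp1 in kb on the horizontal axis and the percentile rank of the deposited score in its library on the vertical axis. Points with stems are peaks, black bars under 0 are hotspots and grey marks the 22.5 kb stretch, which holds 53 peaks of low rank in replicate 1 and 5 peaks in replicate 2, while the 2 peaks on the right were called in both libraries.

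Such stretches were not limited to Basp1. Among 70288 windows of 25 kb with a peak, 61 held at least 20 peaks in replicate 1 and at most 5 in replicate 2, and 41 the reverse. The window in this stretch, with 39 and 5 peaks, was the only one of them in the 3 territories. What set these windows apart between the libraries was not tested.

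Outside that stretch, replicate 2 had its densest 50 kb from -30.0 kb to 20 kb, over the 5′ end of the gene, with 22 peaks against 13 in replicate 1. Clusters near Basp1 numbered 5 in replicate 1 and 7 in replicate 2, and 4 of each overlapped one of the other library. Of these, clusters around the last exon, from 48.1 kb to 55.0 kb in replicate 1, held 6 and 11 peaks, and those from 111 kb to 138 kb held 9 and 9. Those from -33.1 kb to -27.1 kb held 5 and 7, and those from 433 kb to 448 kb held 7 and 5. The 3 clusters of replicate 2 without a counterpart ran from -4.74 kb to 19.6 kb (15 peaks, against 7 in replicate 1), from -96.7 kb to -84.0 kb (7 against 4) and from 662 kb to 670.5 kb (6 against 2). The highest shared peak, 1.47 kb from the 5′ end, scored 96 and 123 (percentiles 92.8 and 95.4), and the peaks at the Basp1 TSS itself 118 and 125. The next shared peaks were weaker, with 73 and 94 at 825 kb, 65 and 88 at 1006 kb, 64 and 89 at 296 kb and 61 and 93 at -27.4 kb. The strongest peaks of either library alone both overlapped the last exon of Basp1, at least in part. They lay at 49.2 kb with a score of 66 in replicate 1 and at 48.8 kb with 77 in replicate 2. Each lay in the widest Basp1 hotspot of its library (1530 bp and 1877 bp), and these hotspots overlapped each other. The peaks thus differed in position within a region called in both libraries.

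Of the distal peaks of each library, 71.2% in replicate 1 and 49.9% in replicate 2 were overlapped by at least 1 bp by a peak of the other library. For Zfp608 the shares were 78.4% (138 of 176) and 57.7% (139 of 241), for Zmiz1 71.9% (82 of 114) and 68.2% (75 of 110) and for Basp1 47.6% (59 of 124) and 47.1% (57 of 121). In replicate 2 the share was above that of all distal peaks for Zmiz1 and Zfp608. Basp1 was below the background in replicate 1, and without the crowded stretch its shares were 72.7% and 45.3%. Among distal peaks ranked above the 50th percentile, 95.2% and 84.3% were shared over the genome, against 91.8% and 75.9% near Zfp608, 81.3% and 77.5% near Zmiz1 and 87.5% and 85.7% near Basp1. These shares rest on only 97 and 145 peaks near Zfp608, 48 and 71 near Zmiz1 and 32 and 42 near Basp1. In both libraries, strong peaks in the Zfp608 and Zmiz1 territories were thus shared less often than strong distal peaks of the whole genome. This was not particular to them, as Sox2 was also below the genome in both libraries (91.3% and 75%). Zfhx3 (98.4% and 76.5%) and Tenm3 (95.3% and 79.2%) were above the genome in replicate 1 and below it in replicate 2. These differences and their cause were not tested.

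In the full peak lists, distal peaks near Zfp608 and Zmiz1 had higher median ranks than all distal peaks. Their median percentile rank was 54.9 and 57.7 for Zfp608 and 48.7 and 57.1 for Zmiz1, where all distal peaks had 43.2 and 44.4. Basp1 had 17.4 and 37.5, and 40.7 and 39.3 without the crowded stretch. The upper quartile of ranks was 68.6 and 74.8 for Zfp608 and 61.7 and 70.8 for Zmiz1, against 66.9 and 67.9 over all. Within the 100000 highest-scoring peaks of each library the order changed, with mean median ranks of 39.8 ± 7.02 for Zfp608, 28.0 ± 7.14 for Zmiz1 and 40.6 for Basp1 (SD, n = 2). The median of all distal peaks within that set is not given here, so whether the genes lay above it is unknown. The highest 10% of peaks held 3.33% and 4.55% of all distal peaks, against 9 (5.11%) and 20 (8.30%) of those near Zfp608, 6 (5.26%) and 8 (7.27%) near Zmiz1 and 1 (0.806%) and 1 (0.826%) near Basp1. The lowest 10% held 11.4% and 11.5% of all distal peaks, against 7 and 3 peaks near Zfp608, 3 and 1 near Zmiz1 and 50 and 17 near Basp1. Zmiz1 had only 6 and 8 peaks in the highest 10%, and its upper quartile in replicate 1 was below that of all distal peaks. In both libraries, Zfp608 and Zmiz1 were above the background share in the highest 10% and below it in the lowest 10%. The same held for Sox2, with 4.67% and 10.8% in the highest 10% and 8.41% and 2.70% in the lowest. Zfhx3 (0.621% and 2.42%) and Tenm3 (1.40% and 3.67%) were below the background at the strong end. Basp1 was below the background at the strong end in both. Its excess at the weak end in replicate 1 came from the crowded stretch, without which 6 of 77 (7.79%) and 16 of 117 (13.7%) were in the lowest 10%, below the background in replicate 1 and above it in replicate 2.

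**Figure D4:**
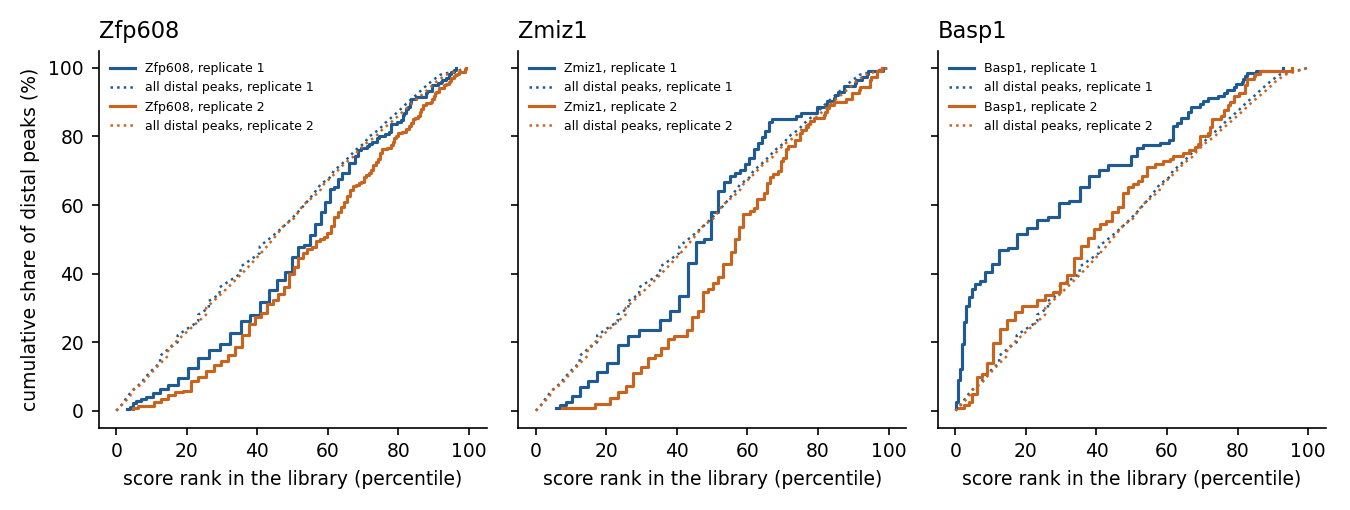
Cumulative share of distal peaks (%, vertical axis) by percentile rank of the deposited score within the library (horizontal axis) for each gene, with solid lines for the gene and dotted lines for all distal peaks, replicate 1 in blue and replicate 2 in orange. A curve to the right of the dotted one means higher ranks; Zfp608 has medians of 54.9 and 57.7 against 43.2 and 44.4, and the early rise of Basp1 in replicate 1 is the stretch of low-scoring peaks.

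Peaks in the territories lay closer together than distal peaks in general. The median gap between neighbours was 1.06 kb and 0.920 kb near Zfp608, 1.32 kb and 1.98 kb near Zmiz1 and 0.680 kb and 1.48 kb near Basp1, against 4 kb and 3.76 kb over all. Clusters held 32.4% and 38.6% of all distal peaks. They held 72.2% and 73.4% of those near Zfp608, 78.1% and 56.4% near Zmiz1 and 59.7% and 49.6% near Basp1, where replicate 1 without the crowded stretch had 35.1%. A high density brings peaks close together and into clusters by itself, so these gaps and shares follow from how the genes were chosen.

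Distal hotspots numbered 159 and 182 near Zfp608, 102 and 100 near Zmiz1 and 111 and 103 near Basp1. They covered 4.66% and 7.53% of the Zfp608 territory, 3.84% and 5.09% of that of Zmiz1 and 2.79% and 3.07% of that of Basp1, against 1.15% and 1.87% of the genome for all distal hotspots. The significance deposited with each hotspot (−log10 of a false discovery rate) has a highest value of 100, called the ceiling here. It was given to 28.8% and 33.2% of distal hotspots. Under the distal peaks of Basp1 the values were at most 6 or exactly 100, so 100 need not be a measured rate. Near Zfp608, 37 (23.3%) and 55 (30.2%) were at the ceiling, near Zmiz1 15 (14.7%) and 28 (28.0%), and near Basp1 35 (31.5%) and 32 (31.1%). The widest Zfp608 hotspot was 1937 bp long at 273 kb in replicate 1 and 4863 bp long at -556 kb in replicate 2, the latter over the highest shared peak. For Zmiz1 it lay at -273 kb in both (1791 bp and 1847 bp), and for Basp1 over the last exon in both (1530 bp and 1877 bp).

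The peaks differed in base composition and motifs. Median GC content was 47.3% and 46.7% for Zfp608, 55.0% and 54.7% for Zmiz1 and 43.7% and 45.3% for Basp1, and 49.3% and 48.7% over all distal peaks. The CTCF core, the central part of the motif bound by the insulator protein CTCF, was in 0 of 176 and 1 of 241 peaks near Zfp608, 1 of 114 and 2 of 110 near Zmiz1 and 2 of 124 and 2 of 121 near Basp1, where 5.22% and 4.10% of all distal peaks held it. TAATTA was in 8.52% and 9.96% of Zfp608 peaks, 6.14% and 8.18% of Zmiz1 peaks and 9.68% and 4.96% of Basp1 peaks, against 5.77% and 7.17% over all. ACAAAG was in 18.8% and 17.8% near Zfp608, 16.7% and 16.4% near Zmiz1 and 13.7% and 14.0% near Basp1, against 14.7% and 14.9%. CAGCTG was in 19.3% and 17.3% near Zmiz1 and 9.68% and 12.4% near Basp1, against 14.7% and 15.2%. Of the motifs searched, the CTCF core was the furthest below its background near Zfp608, and it was below the background for the 3 genes in both libraries. Motif shares for Zfhx3, Tenm3 and Sox2 are not given here, so whether this is particular to the 3 genes is unknown. A match is a string of letters and does not show that a protein was bound.

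Genes related to the members by family or known role differed widely in their own surroundings. Zfp609 had a territory of only 0.146 Mb, with 25 and 23 distal peaks (17.1 and 15.8 per 100 kb), so it was as dense as Zfp608 with far fewer peaks. Among the PIAS relatives of Zmiz1, Zmiz2 had 3 and 3 distal peaks, Pias1 14 and 15, Pias2 1 and 5, Pias3 2 and 3 and Pias4 1 and 2. Notch1 had 20 and 22 within 0.0944 Mb (21.2 and 23.3 per 100 kb). Of the growth cone genes, Gap43 had 25 and 42 (6.28 and 10.5 per 100 kb), Marcks 40 and 43 (4.39 and 4.72) and Marcksl1 3 and 5. Wt1, the partner of Basp1 as a co-repressor, had 10 and 20 (11.9 and 23.7). All 11 related genes had promoter peaks in both libraries. The strongest of each gene lay between the 93.4 and 99.8 percentile, except at Wt1, where it was at 81.2 and 80.5. Neither the share of all coding genes with a promoter peak nor the rank of promoter peaks in general is given here. These values therefore cannot set the related genes apart from other genes.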

How the data were processed

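DNase-seq peaks and hotspots were used as deposited, in separate lists for each library on the mm10 build, per the labels. Peaks are 150 bp wide with a score deposited by the authors, whose meaning is not stated; it was used only to rank peaks within a library (percentile, ties averaged). Hotspots carry the authors' deposited −log10 false discovery rate. Which aligner and caller were run is not given in the sources used here. Duplicate lines (34 and 56) were removed.

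TSSs and genes came from GENCODE M21. Distal peaks were assigned by the nearest coding TSS, and clusters, bins, overlaps, motifs and sequences were computed with Python 3.11.15, pandas 2.3.3, pysam 0.24.0 and samtools 1.23.1. The scripts were tested on simulated data. Motifs were matched in the peak's 150 bp. A peak was counted as in an exon if any part of it overlapped one. Peaks named were the 5 shared distal peaks per gene with the highest lower rank, the farthest in the top 10% of both libraries and the strongest in either library alone. Of these and the marker lists, some items are not reported here. The 3 genes, the gene and marker lists and the motifs were chosen with earlier results of these data known. The look at the stretch near Basp1 came after its values were seen. Alternatives were the TSS window, the TSS set, the peaks kept, the cluster gap, the overlap and the hotspot ceiling.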

Additional observations from a re-analysis of the deposited data

How the results depend on the processing

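Of 106 alternatives, 76 moved a mean over both libraries by less than 1 SD and 30 by more; the 76 include the 30 values with 1 library left out, which lie within 1 SD by construction. With the 100000 highest-scoring peaks of each library, mean distal peaks were 127 (Zfp608), 72 (Zmiz1) and 38.5 (Basp1), shares in clusters 58.3%, 47.0% and 6.58%, median ranks among those peaks 39.8, 28.0 and 40.6, so that Basp1 was no longer the lowest, and the share overlapped 83.1% (Basp1). A cluster gap of 5 kb gave 53.4% (Zfp608) and 46.4% (Zmiz1) of peaks in clusters, and 20 kb gave 94.8%, 90.7% and 70.5% (Basp1). A TSS window of 500 bp gave 76.1% in clusters for Zfp608 and 2.5 kb gave 68.1%. For Basp1 a window of 2.5 kb gave 48.2% overlapped and 5′ ends alone 46.9%. An overlap of 75 bp gave 59.8% (Zmiz1) and 38.8% (Basp1). Hotspots at the ceiling averaged 46, 21.5 and 33.5 for Zfp608, Zmiz1 and Basp1. Of the alternatives added after seeing the data, leaving out peaks with a score in decimal form gave 70.2% (Zfp608) and 50.6% (Zmiz1) in clusters, 74.8% (Zmiz1) and 50.004% (Basp1) overlapped and a median rank of 59.4 (Zfp608). Leaving out the stretch near Basp1 gave 43.2% in clusters and 59.0% overlapped. Beyond the construction of each alternative, the cause was not tested.

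No paired analysis was possible because there is 1 group. Each library's own values stand in the report, so leaving out either replicate gives the other's. Depth is unknown, and the score and the hotspot ceiling limit what can be compared between the libraries. Replicate, instrument and library size cannot be told apart with 2 libraries.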
